A study of Arabidopsis thaliana with 6 samples.

Results

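The BGLU genes of Arabidopsis thaliana encode β-glucosidases of glycoside hydrolase family 1. A probe set, the group of short probes that reports 1 transcript, was taken as a member where the platform annotation gave it 1 gene with a symbol of BGLU and a number. This selected 20 genes with 1 probe set each, of 22810 probe sets on the Affymetrix ATH1 array. The reference gene table holds 40 genes with such a symbol. The others were not analysed here, except that signals of a probe set shared by BGLU21 and BGLU22 are given at the end. The 6 arrays carried labelled RNA from whole pollinated flowers at stage 14-15, 3 arrays from pop2-1 homozygotes and 3 from wild-type plants. Both groups were of the Ler accession and were grown at 21°C with a 16-hour day. pop2-1 is a mutant allele of POP2, which encodes the transaminase that degrades the amino acid GABA, and the series compared the genotypes because the mutant flowers hold much GABA. Samples were grouped and numbered by their titles, since protocol fields describe wild-type samples in the mutant's words. The titles call the replicates biological and do not say whether flowers were pooled or whose pollen was used. Where they do not mark separate plants, the p-values measure the spread between these samples only.

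Family 1 β-glucosidases cut glucose from small molecules that plants store as inactive glucosides. Their substrates include glucosinolates, flavonols, coumarins, the alcohols that form lignin and the glucose ester of abscisic acid, while UDP-glycosyltransferases attach the sugar. In Arabidopsis and its relatives the family also includes the myrosinases, which break glucosinolates to release defence compounds, and PYK10, the main protein of the endoplasmic reticulum bodies of roots and seedlings.

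The deposited values were MAS5 signals, a linear hybridisation intensity scaled to a common average on each array (2% trimmed mean 500.04 on each of the 6). Median signals were 213.7 to 228.9 on the pop2-1 arrays and 209.3 to 217.7 on the wild-type arrays. RNA quality was uneven: the ratio between the 3' and 5' actin control probe sets was 9.73 on the array of pop2-1 replicate 2, while the other pop2-1 arrays had 1.81 and 2.70 and the wild-type arrays 1.72 to 2.93. SWEET9, the sugar exporter of nectaries, had signals of 6814 to 7294 in pop2-1 flowers and 7027 to 7367 in wild-type flowers. For INO, an ovule integument regulator, pop2-1 signals ran between 269 and 355 and wild-type signals between 193 and 330. The 11 floral organ identity genes chosen as defining markers were not analysed here, as none had a listed probe set of its own.

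Of the 20 genes, 9 had a mean signal above the 40th percentile of all probe sets, which was 129.7, and only these were tested. The tested gene nearest to this level was BGLU28, with a mean over all arrays of 279.2, and the nearest below it was BGLU45, with 104.8. The level of 126 obtained from mean log2 signals selected the same 9 genes. Signals of different probe sets depend on their probes, so values are compared between groups for each gene and not between genes.

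None of the 9 tested genes passed in limma at an adjusted p under 0.05, neither as higher nor as lower in pop2-1 flowers, and 1, BGLU28, had an unadjusted p under 0.05. Of all 13647 tested probe sets, 0.462% passed (0.147% as higher and 0.315% as lower), and 11.9% had an unadjusted p under 0.05. The log2 difference, pop2-1 minus wild type on the log2(signal + 16) scale, was above 0 for 5 of the 9 genes and below 0 for 4. Its median was 0.12, beside 0.03 over all tested probe sets. For the 8 genes other than BGLU28 it lay between -0.21 and 0.39. Signals of the groups did not overlap for 5 of the 9 genes, 3 with pop2-1 above and 2 with pop2-1 below, and the share among all tested probe sets was 17.9% (9.88% above and 8.06% below). The scatter within groups was small for most of these genes, with coefficients of variation of 2.05% to 34.2%.

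**Figure D1:**
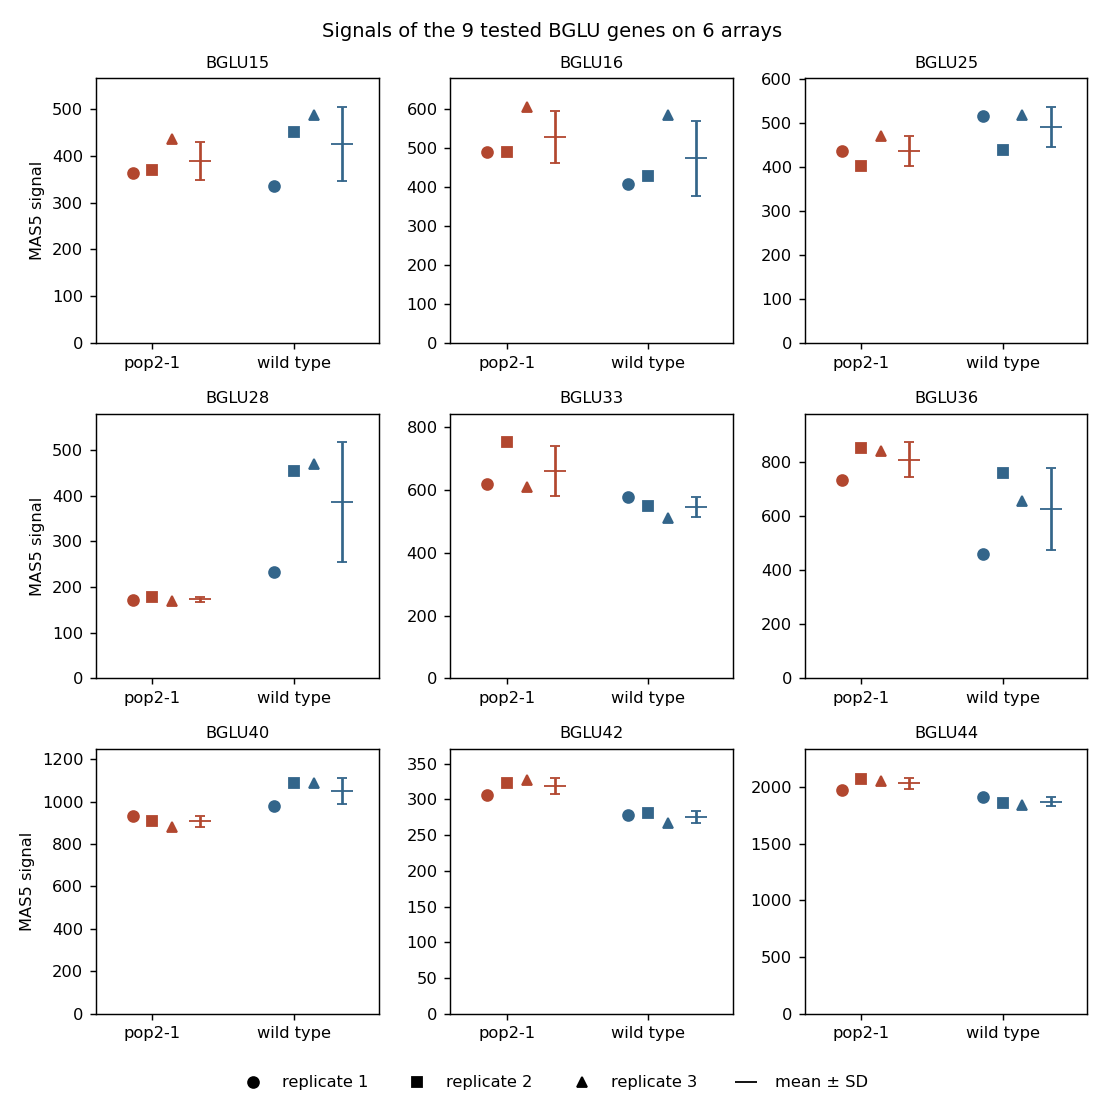
MAS5 signals (linear axis from 0) of the 9 tested BGLU genes, a panel for each gene, with pop2-1 flowers left and wild-type flowers right. Points are single arrays with a marker shape for each replicate number, and bars are mean ± SD (n = 3). The 3 pop2-1 signals of BGLU28 lie between 169 and 178, below all wild-type signals, while those of BGLU33, BGLU42 and BGLU44 lie above all wild-type signals by small margins.

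BGLU28 encodes a β-glucosidase whose transcript is known to accumulate under sulfate limitation and which acts on glucosinolates, the sulfur-rich defence compounds of this plant order. Its signals were 172, 178 and 169 in pop2-1 flowers (replicates 1, 2 and 3), against 234, 454 and 469 in wild-type flowers. All pop2-1 signals lay below all wild-type signals, and the wild-type array of replicate 1 lay far below the other wild-type arrays. The pop2-1 arrays averaged 173 ± 4.64 and the wild-type arrays 386 ± 132 (SD, n = 3 each). The log2 difference was -1.03 ± 0.24 (limma SE, 95% interval -1.57 to -0.48), 2.04-fold lower in pop2-1. It did not pass over all tested probe sets (limma adjusted p = 0.133, unadjusted p = 0.00203). In whole flowers, fewer cells of a type and less RNA per cell cannot be told apart.

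Paired by replicate number, BGLU28 had log2 differences of -0.41, -1.28 and -1.40 for replicates 1, 2 and 3. That 3 of 3 pairs were lower in pop2-1 was fixed, since the groups did not overlap. With the replicate number as a block, BGLU28 passed (limma adjusted p = 0.0425), where 1.9% of all tested probe sets passed, 1.1% as lower. Leaving out wild-type replicate 1, the wild-type array nearest to the pop2-1 signals, could only enlarge the log2 difference. It was then -1.34 and passed (limma adjusted p = 0.0386), where 0.11% of all tested probe sets passed. Without wild-type replicate 2 or 3 it was -0.88 and -0.86 and did not pass (limma adjusted p = 0.359 and 0.513). BGLU28 also passed with array weights (limma adjusted p = 0.0127), a fit in which 7.12% of all tested probe sets passed. Over all 18 alternatives in which it was tested, its adjusted p ranged from 0.0127 to 0.513 and its log2 difference from -1.34 to -0.86. The direction could not turn by leaving out an array, since the groups did not overlap.

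**Figure D2:**
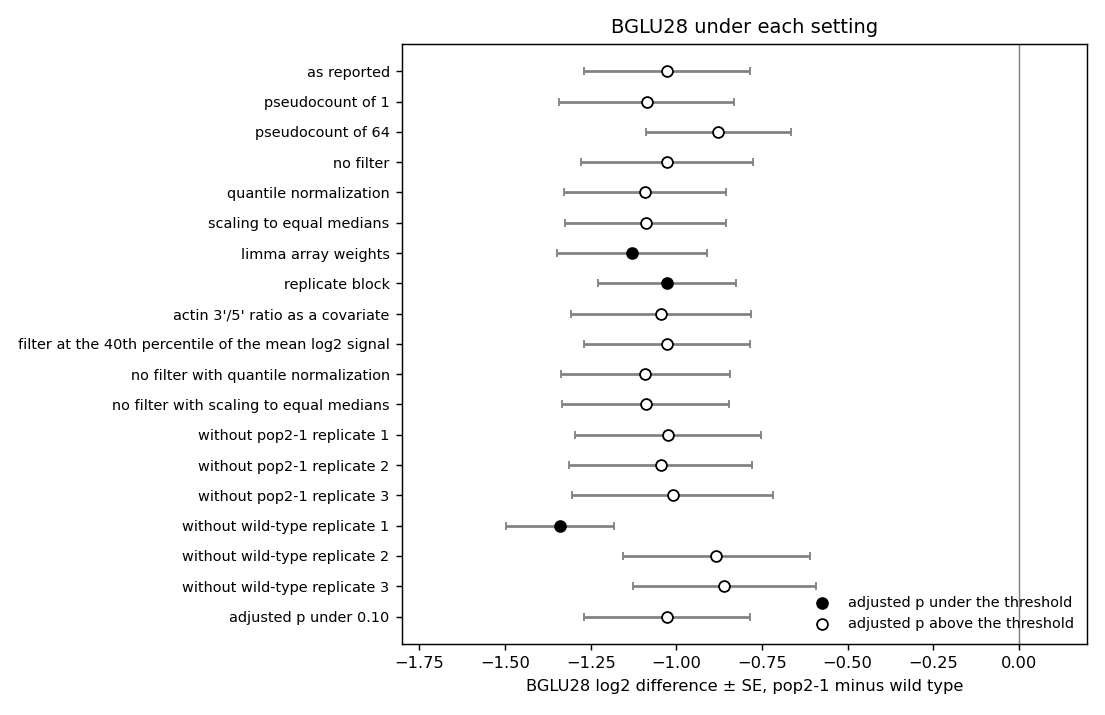
Log2 difference of BGLU28 (horizontal axis, pop2-1 minus wild type, with limma's SE) under the reported setting and each alternative (vertical axis). Filled points passed the adjusted p threshold of 0.05 (0.10 in the last line). The difference was between -1.34 and -0.86 throughout and passed in 3 alternatives.

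On the BGLU28 probe set the lowest wild-type array was replicate 1, as it was for 5 of the 9 tested genes (BGLU15, BGLU16, BGLU28, BGLU36 and BGLU40) and for 37.1% of all tested probe sets. Markers of ovules and young seeds differed among themselves. BAN, the anthocyanidin reductase of the seed coat, had signals of 54.0, 43.5 and 71.2 in pop2-1 flowers and 229, 494 and 458 in wild-type flowers. BAN was lower in pop2-1 (log2 -2.45 ± 0.29, limma adjusted p = 0.0111). All its pop2-1 signals lay below the level used for testing, and with no filter its limma adjusted p was 0.0252. INO was higher in pop2-1 in 3 of 3 pairs and did not pass (log2 0.31 ± 0.20, limma adjusted p = 0.567). Of the 10 genes on the ovule and seed coat list, 4 had a listed probe set (BAN, INO, AGL62 and IKU2) and 2 were tested, with 1 lower and 0 higher. The summed signal of the 4 was 330 to 447 on the pop2-1 arrays and 458 to 812 on the wild-type arrays. That difference came from BAN, since the other 3 summed to 287 to 376 on the pop2-1 arrays and 229 to 354 on the wild-type arrays. The endosperm regulator AGL62 had signals of 33.8, 15.0 and 13.8 in pop2-1 and 31.3, 31.4 and 17.5 in wild type. IKU2, a kinase of seed growth, stayed between 2.76 and 7.09 in pop2-1 and between 4.38 and 6.73 in wild type. The part of seed tissue in the BGLU28 difference was not tested. With the actin 3'/5' ratio as a covariate, BGLU28 stood at -1.05 (limma adjusted p = 0.115), and without pop2-1 replicate 2 it was also at -1.05 (limma adjusted p = 0.158).

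BGLU28 (AT2G44460) lies between BGLU15 (AT2G44450) and BGLU29 (AT2G44470) in the TAIR10.1 gene table, with 0 protein-coding genes between neighbours. In the same row of genes follow BGLU17 and PEN2, the myrosinase of pathogen defence, neither of which was analysed here. BGLU15, known to hydrolyse flavonol glycosides, had signals of 362, 370 and 436 in pop2-1 flowers and 336, 452 and 488 in wild-type flowers. The groups overlapped, with a log2 difference of -0.11 ± 0.16 (95% interval -0.48 to 0.26, limma adjusted p = 0.809). BGLU29 was dim, with 24.3, 13.9 and 34.99 in pop2-1 and 22.0, 16.0 and 26.3 in wild type, and the groups overlapped.

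BGLU36 (AT1G51490) belongs to the myrosinase subgroup, which also holds the leaf myrosinases TGG1 and TGG2. It had the largest positive difference of the 9 tested genes. Its signals were 731, 849 and 839 in pop2-1 flowers and 460, 760 and 655 in wild-type flowers, and the groups overlapped through wild-type replicate 2. The log2 difference was 0.39 ± 0.18 (95% interval -0.01 to 0.79, limma adjusted p = 0.431) and was positive in 3 of 3 pairs. Without wild-type replicate 1 it was 0.19, the lowest of its 19 alternatives.

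Of the 19 genes on the pollen and pollen tube list, 5 had a listed probe set (ANX1, ANX2, MGH3, ACT12 and SETH1), 3 were tested and 0 passed in either direction. The 3 tested genes were higher in pop2-1 in 3 of 3 pairs, with a median log2 difference of 0.49. ANX2, a receptor kinase of pollen tubes, had signals of 341, 741 and 495 in pop2-1 and 325, 368 and 366 in wild type (log2 0.49 ± 0.24, limma adjusted p = 0.455). MGH3, a histone of male gametes, had 170, 309 and 246 in pop2-1 and 151, 195 and 133 in wild type (log2 0.53 ± 0.23, limma adjusted p = 0.412, unadjusted p = 0.0467). The pollen actin gene ACT12 had 130, 192 and 225 in pop2-1 and 98.0, 133 and 160 in wild type (log2 0.43 ± 0.25, limma adjusted p = 0.517). In each of these genes the groups overlapped. Both dim genes overlapped as well, ANX1 with 52.4 to 108 in pop2-1 against 70.0 to 98.3 in wild type, and SETH1 with 50.1 to 59.1 in pop2-1 against 51.9 to 79.1 in wild type. ANX1 was higher in pop2-1 in 2 of 3 pairs, and SETH1 was lower in 3 of 3. The summed signal of the 5 was 754, 1400 and 1121 in pop2-1 (replicates 1, 2 and 3) and 736, 845 and 798 in wild type. The highest sum was on pop2-1 replicate 2, the array with the high actin ratio. In each group the sum and BGLU36 were lowest on replicate 1 and highest on replicate 2. Wild-type replicate 1 was the lowest wild-type array for 37.1% of all tested probe sets. The share of probe sets with the full order in both groups was not computed. The single markers did not all share this order. ACT12 was highest on replicate 3 in both groups, and MGH3 was lowest on replicate 3 in wild type. The part of pollen in the BGLU36 values was not tested.

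**Figure D3:**
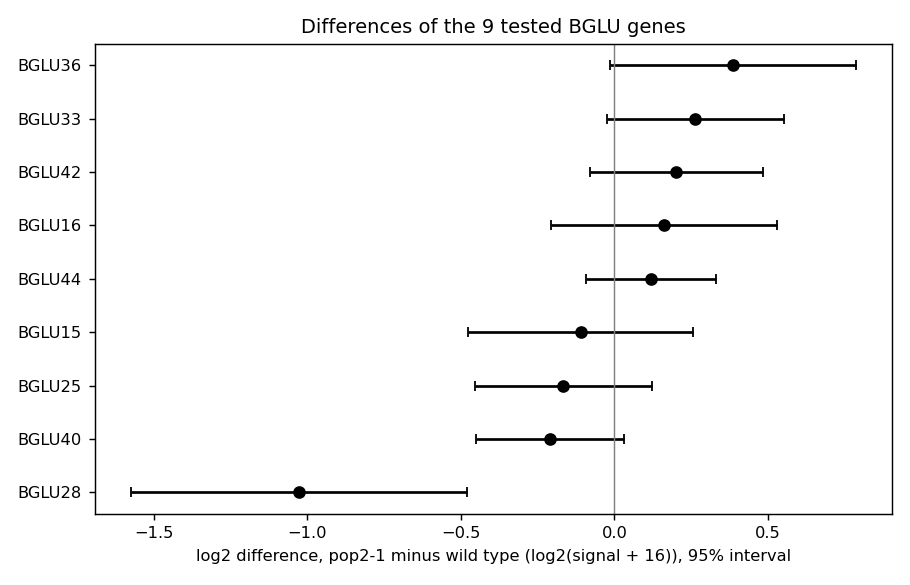
Log2 differences (horizontal axis, pop2-1 minus wild type on the log2(signal + 16) scale) of the 9 tested BGLU genes (vertical axis), with 95% intervals from limma. The interval of BGLU28 (-1.57 to -0.48) lies below 0 before adjustment over all tested probe sets, and the intervals of the other 8 genes include 0.

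BGLU33 encodes a vacuolar β-glucosidase that can release abscisic acid from its glucose ester. Its signals were 620, 752 and 610 in pop2-1 flowers and 578, 548 and 511 in wild-type flowers. The groups did not overlap, with the highest signal on pop2-1 replicate 2, the array with the high actin ratio. BGLU33 differed by 0.26 ± 0.13 on the log2 scale (95% interval -0.02 to 0.55, limma adjusted p = 0.455), and without that array it was 0.17.

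UGT71C5, which makes the glucose ester of abscisic acid, had signals of 264, 283 and 300 in pop2-1 and 218, 231 and 222 in wild type. The groups did not overlap, with a log2 difference of 0.32 ± 0.14 (limma adjusted p = 0.405). UGT73B1 differed by -0.00 ± 0.19. Of the 5 abscisic acid glycosyltransferase genes listed, 4 had a probe set, 2 were tested and 0 passed.

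BGLU42 encodes the root β-glucosidase that frees the coumarin scopoletin from its glucoside under iron limitation and in induced resistance. Its signals were 306, 324 and 327 in pop2-1 flowers and 278, 281 and 266 in wild-type flowers. The groups were tight and did not overlap, with means of 319 ± 11.6 for pop2-1 and 275 ± 7.85 for wild type (SD, n = 3 each). The log2 difference was 0.20 ± 0.13 (95% interval -0.08 to 0.48, limma adjusted p = 0.549). F6'H1, a key enzyme of scopoletin synthesis and here matched to AT3G13610, was the 1 gene of its list of 8 with a probe set, and it was too dim to test (60.3 to 86.0 in pop2-1, 46.0 to 61.4 in wild type).

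BGLU44 (AT3G18080) encodes an enzyme that prefers mannosides to glucosides. Its signals were 1980, 2071 and 2058 in pop2-1 flowers and 1916, 1861 and 1843 in wild-type flowers. The groups did not overlap, although the log2 difference was only 0.12 ± 0.09 (95% interval -0.09 to 0.33, limma adjusted p = 0.639). Its neighbour BGLU43 (AT3G18070) was dim, with 22.3, 5.57 and 3.38 in pop2-1 and 3.88, 4.37 and 9.10 in wild type.

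BGLU40 (AT1G26560) was the other tested gene with all pop2-1 signals below wild type. Its signals were 932, 906 and 882 in pop2-1 flowers and 981, 1089 and 1085 in wild-type flowers. The log2 difference was -0.21 ± 0.11 (95% interval -0.45 to 0.03, limma adjusted p = 0.475), a 1.16-fold difference. Its adjusted p ranged from 0.118 to 0.874 over 19 alternatives.

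BGLU25 belongs by sequence to the PYK10 subgroup. Its signals were 436, 402 and 470 in pop2-1 flowers and 517, 439 and 519 in wild-type flowers. The groups overlapped, while 3 of 3 pairs were lower in pop2-1. BGLU25 differed by -0.17 ± 0.13 (95% interval -0.46 to 0.12, limma adjusted p = 0.632).

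Other genes of the PYK10 subgroup and the endoplasmic reticulum body had low signals. BGLU19, a gene of that subgroup, had 4.56, 4.45 and 4.24 in pop2-1 and 4.91, 3.09 and 3.13 in wild type. BGLU24, of the same subgroup, had 3.97, 38.0 and 36.9 in pop2-1 and 2.097, 12.3 and 18.8 in wild type. PYK10 itself lay between 17.4 and 52.6 in pop2-1 and between 29.1 and 49.3 in wild type. In each of these genes the groups overlapped. NAI1, the regulator that endoplasmic reticulum bodies need, lay between 4.46 and 24.2 in pop2-1 and between 7.82 and 25.8 in wild type, and NAI2, a structural protein of these bodies, between 20.8 and 46.2 in pop2-1 and between 1.67 and 25.2 in wild type.

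Of the 19 genes listed for the PYK10 complex and these bodies, 6 had a probe set and 1 was tested, the jacalin-related lectin gene JAL23. Its signals were 807, 1841 and 1721 in pop2-1 and 592, 680 and 393 in wild type. The groups did not overlap, but the log2 difference of 1.31 ± 0.31 did not pass (limma adjusted p = 0.133).

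BGLU16 (AT3G60130) had signals of 491, 490 and 607 in pop2-1 flowers and 409, 430 and 585 in wild-type flowers. In both groups replicate 3 was the highest array, and the groups overlapped, although pop2-1 was higher in 3 of 3 pairs. BGLU16 differed by 0.16 ± 0.16 (95% interval -0.21 to 0.53, limma adjusted p = 0.717). The neighbouring gene BGLU27 (AT3G60120) had 35.8, 31.8 and 41.0 in pop2-1 and 6.85, 4.37 and 14.7 in wild type. These groups did not overlap, at signals far under the level used for testing.

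BGLU45 and BGLU46 (AT1G61810 and AT1G61820), neighbouring genes, encode enzymes that release monolignols, the units of lignin, from their glucosides. BGLU45 had signals of 133, 129 and 129 in pop2-1 flowers and 72.4, 87.2 and 78.3 in wild-type flowers. The groups were tight and did not overlap. BGLU46 had 130, 80.5 and 109 in pop2-1 and 58.4, 76.8 and 92.8 in wild type, and the groups overlapped. BGLU47, a gene of the same subgroup, had 32.5, 48.1 and 88.0 in pop2-1 and 54.8, 58.6 and 27.8 in wild type, with wide scatter in both groups.

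Of the 7 listed glycosyltransferase genes for monolignols and related phenolics, 6 had a probe set, 4 were tested and 0 passed. UGT84A1, which forms glucose esters of hydroxycinnamic acids, had the smallest p, with 86.1, 66.9 and 133 in pop2-1 and 119, 187 and 201 in wild type. Its groups overlapped (log2 -0.75 ± 0.28, limma adjusted p = 0.344). Its pop2-1 mean of 95.5 lay below the level used for testing, and with no filter its limma adjusted p was 0.444. UGT72E3, which glucosylates monolignols, differed by 0.31 ± 0.15, and UGT84A3 by 0.24 ± 0.13.

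The neighbours BGLU31 and BGLU32 (AT5G24540 and AT5G24550) were very dim. BGLU31 had signals of 22.6, 28.8 and 24.1 in pop2-1 flowers and 16.7, 18.3 and 2.08 in wild-type flowers. BGLU32 had 8.57, 7.60 and 8.78 in pop2-1 and 2.52, 2.85 and 0.455 in wild type. Neither pair of groups overlapped. BGLU41 had 61.4, 50.4 and 76.9 in pop2-1 and 50.3, 72.3 and 57.6 in wild type, and its groups overlapped.

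Among the 11 dim genes, signals of the groups did not overlap for 4, BGLU27, BGLU31, BGLU32 and BGLU45, with pop2-1 above in each. Of all 9099 probe sets too dim to test, 12.5% did not overlap, 8.69% with pop2-1 above and 3.78% with pop2-1 below. The log2 difference was above 0 for 11 of the 11 genes, with a median of 0.41, where 59.4% of all dim probe sets were above 0 with a median of 0.08. After scaling to equal medians 9 of 11 were above 0 (BGLU19 and BGLU41 stood at -0.01 each), and after quantile normalization 10 of 11 (BGLU41 at -0.03). In the limma fit with no filter 0 of the 11 passed, where 0.185% of all probe sets passed. Of the 11, 2 had an unadjusted p under 0.05, BGLU27 (log2 1.10 ± 0.26, limma adjusted p = 0.201) and BGLU45 (0.62 ± 0.20, limma adjusted p = 0.348). The share of all probe sets with such an unadjusted p was not computed for this fit. In the reported fit it was 11.9% of the tested probe sets. Whether such low signals lie above background was not analysed here.

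**Figure D4:**
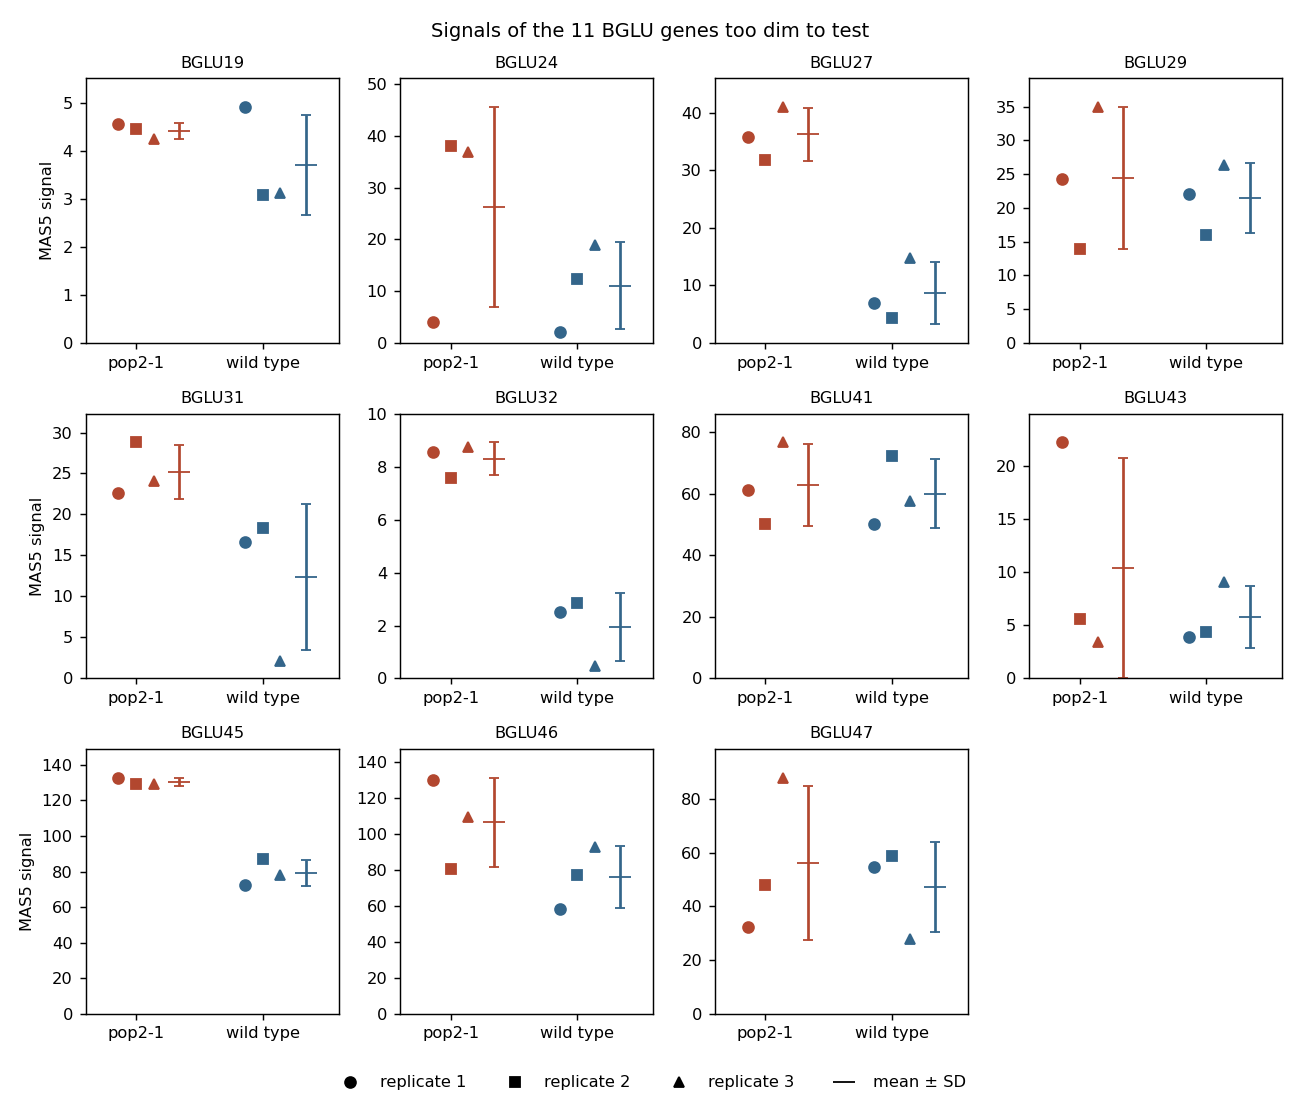
MAS5 signals (linear axes from 0 with a scale for each panel) of the 11 BGLU genes whose mean signal was below 129.7, with pop2-1 flowers left and wild-type flowers right. Points are single arrays and bars are mean ± SD (n = 3). The groups do not overlap for BGLU27, BGLU31, BGLU32 and BGLU45, with pop2-1 above in each, and overlap for the other 7.

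Glucosinolates are the substrates of BGLU28 and the myrosinases, and their synthesis genes were listed beside the family. Of 28 genes, 3 had a probe set, all 3 were tested and 0 passed. BCAT4, the aminotransferase that starts methionine-derived glucosinolates, had signals of 135, 322 and 281 in pop2-1 and 69.3, 89.8 and 96.7 in wild type. All its wild-type signals lay below the level used for testing, so it was tested only because of its pop2-1 signals. With no filter its limma adjusted p was 0.201. Its groups did not overlap (log2 1.30 ± 0.30, limma adjusted p = 0.125). AOP3, which modifies glucosinolate side chains, had 370, 582 and 633 in pop2-1 and 360, 317 and 307 in wild type, also without overlap (log2 0.63 ± 0.20, limma adjusted p = 0.249). UGT74B1, which adds the glucose of the glucosinolate core, differed by -0.15 ± 0.14 (limma adjusted p = 0.691).

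Of the 20 genes listed for the response to sulfate limitation, 2 had a probe set, the ATP sulfurylase genes APS3 and APS4. APS3 had signals of 286, 173 and 262 in pop2-1 and 221, 318 and 291 in wild type. APS4 had 1659, 1709 and 1741 in pop2-1 and 2492, 2206 and 1097 in wild type. Neither passed, with log2 differences of -0.21 ± 0.21 and -0.10 ± 0.26 (limma adjusted p = 0.723 and 0.899), and both pairs of groups overlapped. The response was therefore hardly covered.

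Of the 10 genes listed for flavonol and anthocyanin glycosides, among them BGLU15, 5 had a probe set and 4 were tested. UF3GT, an anthocyanin glycosyltransferase gene, was the 1 that fell in pop2-1 (log2 -1.34 ± 0.14, limma adjusted p = 0.00686), and 0 rose. UGT78D1, which glycosylates flavonols, differed by 0.23 ± 0.16 and UGT78D2 by -0.13 ± 0.13. The lists for glucosinolate breakdown partners, dark-induced genes, and xylosidases with other wall hydrolases had no gene with a listed probe set, and BGAL16, the 1 listed β-galactosidase gene with a probe set, was too dim to test.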

How the data were processed

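The deposited values were MAS5 signal intensities on a linear scale, for which the submitters' processing notes name MAS5; its version and scaling target are not given in the sources used here, and detection calls were not used. The authors' scaling hides changes in total RNA. Symbols came from the platform annotation, updated through the Entrez number to the TAIR10.1 gene table. Of 22746 probe sets left without 64 array controls, 13513 had 1 gene, 503 several and 8730 none listed.

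From these, log2(signal + 16) was tested with limma 3.58.1 in R 4.3.3 (lmFit, eBayes with an intensity trend, 2-sided, Benjamini-Hochberg over the 13647 probe sets above the 40th percentile of the mean signal). The fit was also run on simulated data. These had independent arrays and no filter step, so they do not cover pairing, uneven RNA quality or the filter. The number of arrays limits the precision. After subtraction of group means, pop2-1 and wild-type arrays with the same number correlated at 0.208, 0.418 and 0.172 across probe sets. Arrays with different numbers correlated at -0.356 to 0.14, the highest for pop2-1 replicate 1 with wild-type replicate 3. Replicate numbers, taken from the titles, entered a fit as pairs in the block alternative only. The counts of pairs given for single genes also match arrays by these numbers. The titles do not say that the numbers mark pairs. All members are named. From the 18 gene lists up to 3 tested genes with the smallest p are named; dim genes and markers named beside them were chosen after their values were seen. Members and lists were chosen with earlier results of these data known. No sequences were used here.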

Additional observations from a re-analysis of the deposited data

How the results depend on the processing

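All 169 differences of single tested genes, recomputed under up to 19 alternatives (the filter at the 60th percentile left out BGLU28 and BGLU42), kept their direction. In 43 of the 169 this was fixed, because 5 alternatives (no filter, both other filters, the replicate block and the adjusted p of 0.10) leave the estimated difference as it is. Nor could leaving out an array turn a gene whose groups did not overlap. The number of genes passing as higher was 0 under each alternative. The number passing as lower was 0, except for 1, BGLU28, with the replicate block, with array weights and without wild-type replicate 1, so that leaving out 1 array gave 0 to 1. The replicate block changed no other call among the 9 genes. The median log2 difference of 0.12 became 0.18 with no filter, where it covers 20 genes, and 0.0575 after scaling to equal medians, which moved the median of all tested probe sets to -0.03. It lay between 0.063 and 0.14 when 1 array was left out, with 0.063 where pop2-1 replicate 3 and 0.0674 where wild-type replicate 1 was missing; the cause was not tested. With no filter together with scaling to equal medians and with quantile normalization it was 0.12 and 0.15. These settings, and a filter on the mean log2 signal, were chosen after seeing the data. Beyond dim signals, the 3 arrays per group limit what could pass.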

Other observations

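ATA27, a family 1 gene of the anther tapetum that also carries the name BGLU20, was too dim to test and scattered widely. Its signals were 2.97, 124 and 90.0 in pop2-1 flowers and 10.8, 61.4 and 63.4 in wild-type flowers, lowest on replicate 1 in both groups. AMS, a tapetum regulator, lay between 19.0 and 24.6 in pop2-1 and between 3.88 and 42.4 in wild type. The probe set shared by BGLU21 and BGLU22, genes for scopolin hydrolysis in roots, had 0.571, 19.5 and 11.3 in pop2-1 and 17.5, 11.4 and 2.26 in wild type, and cannot be given to either gene.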
